A study of Mus musculus with 12 samples.

Results

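Gpnmb, Atp6v0d2, Mcoln3, Htr2b and Akr1b8 were the 5 genes with the largest rises after a demyelinating lesion in control spinal cord, among 54838 genes listed and 31109 tested. Their rise was chosen on the control libraries. Each was called higher at 4 days post-lesion (4dpl) than in unlesioned tissue, and was higher in every 4dpl library than in every unlesioned library. Each also had an average log2 CPM of 1 or more over all 12 libraries (CPM, the count of a gene relative to all counts of its library, with TMM scaling). 1570 genes met these criteria, and the 5 with the largest log2 fold change were kept. Their values in control are therefore a description, and the same change was tested in the mutant libraries. That test was not fully separate from control. The average level was taken over both genotypes, and the fit estimated the spread of each gene from the libraries of both. The last gene inside this limit was Mcoln3, with a log2 fold change of 3.34, and the first outside was Mamdc2, with 3.23.

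RNA came from spinal cord of mice at postnatal day 60, in 4 groups of 3 libraries. Control mice were Olig1+/+;Tet1fl/fl and Tet1 mutants were Olig1cre/+;Tet1fl/fl, so that both genotypes carried the floxed Tet1 alleles and only the mutants carried cre, which is driven by the Olig1 locus and acts in the oligodendrocyte lineage and not, by design, in myeloid cells. Lesions were made by injection of lysolecithin (LPC), which dissolves myelin at the injection site, and tissue was taken 4 days later, with unlesioned tissue taken from the opposite side of the cord. Tissue was passed over a Percoll density gradient, which enriches oligodendroglial cells without sorting them, and other cells remain in the suspension. Genotypes are those of the labels, because the gene-level count of Tet1 did not separate them, with 14.9 to 18.3 CPM in control and 9.94 to 16.4 CPM in mutant unlesioned libraries and 11.7 to 12.5 CPM in control and 10.9 to 21.5 CPM in mutant 4dpl libraries.

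Total counts ranged from 34805086 to 67251544 per library, and the number of libraries, not the counting error, limited the precision for all but the lowest values. The 8 myeloid markers summed to 4476 to 7620 CPM without lesion and 8737 to 13147 CPM at 4dpl. Such sums carry the TMM scaling, with factors of 0.8063 to 1.3022, and are not shares of the counts of a library. Whether the 2 ranges stay apart as shares of counts was not tested. Mature oligodendrocyte markers summed to 14753 to 70370 CPM, neutrophil markers to 19076 to 106335 CPM and erythroid markers to 12100 to 99957 CPM. The 6 markers of oligodendrocyte progenitors summed to 59.8 to 277 CPM. No marker was at 0 in all libraries. In bulk RNA, more cells of a type and more RNA per cell cannot be told apart.

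The 5 genes belong to different pathways. Gpnmb encodes glycoprotein NMB, a transmembrane glycoprotein of melanosomes and phagolysosomes that is known from macrophages and microglia laden with lipid. Atp6v0d2 encodes the d2 isoform of the membrane sector of the V-ATPase, the proton pump that acidifies endosomes and lysosomes, and is known from macrophages and osteoclasts, where it is needed for cell fusion. Mcoln3 encodes TRPML3, a cation channel of endosomes and lysosomes. Htr2b encodes the serotonin 2B receptor, a G protein-coupled receptor, and Akr1b8 an aldo-keto reductase that reduces aldehydes with NADPH. After demyelination, phagocytes take up myelin debris and break down its lipid in lysosomes.

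In GRCm38, Gpnmb (ENSMUSG00000029816) lies on chromosome 6 from 49036546 to 49070929 on the plus strand, and its principal transcript has 11 exons. Akr1b8 (ENSMUSG00000029762) lies on the same chromosome from 34354119 to 34368463, also on the plus strand, with 10 exons. Atp6v0d2 (ENSMUSG00000028238) lies on chromosome 4 from 19876841 to 19922605 on the minus strand, with 8 exons. Mcoln3 (ENSMUSG00000036853) lies on chromosome 3 from 146117450 to 146141806 on the plus strand, with 12 exons. Htr2b (ENSMUSG00000026228) lies on chromosome 1 from 86099026 to 86111970 on the minus strand, with 4 exons, within the span of Psmd1 on the other strand. All are protein coding, and the counts span their exons and untranslated regions. Of the 100-base windows of each gene's exons, none of Gpnmb, Atp6v0d2, Mcoln3 or Akr1b8 was also found in a transcript of another gene, so that the paralogs of the last 3 can be told apart by unique reads of that length. For Htr2b 154 of 2129 windows (7.23%) were shared with Psmd1.

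The promoters of the 5 genes were searched for motifs of factors known in myeloid and stress responses. That the genes were high in the same control libraries follows from their choice. RefSeq promoters of GRCm38.p6, from 250 bases before to 50 bases after the annotated start, matched 4 of the 5 genes, all but Atp6v0d2. The motifs, searched on both strands, were the AP-1 motif TGANTCA (present in 7.81% of all 32851 promoters of this length), the PU.1 core GAGGAA (28.3%), the E-box of lysosomal genes TCACGTG (3.77%), the M-box core TCATGTG (3.77%) and the core of the antioxidant response element TGACNNNGC (12.4%). These motifs do not overlap within the 4 promoters. Gpnmb and Htr2b are shown because both promoters held an AP-1 match. They cover chr6:49036268-49036567 on the plus strand and chr1:86111931-86112230 on the minus strand, and capitals mark the matches.
Gpnmb: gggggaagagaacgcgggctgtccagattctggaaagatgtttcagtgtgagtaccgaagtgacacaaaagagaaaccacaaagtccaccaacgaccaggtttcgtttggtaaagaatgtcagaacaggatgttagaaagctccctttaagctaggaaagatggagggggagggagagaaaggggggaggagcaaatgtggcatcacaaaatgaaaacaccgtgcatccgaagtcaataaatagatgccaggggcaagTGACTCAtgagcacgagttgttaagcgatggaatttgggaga
Htr2b: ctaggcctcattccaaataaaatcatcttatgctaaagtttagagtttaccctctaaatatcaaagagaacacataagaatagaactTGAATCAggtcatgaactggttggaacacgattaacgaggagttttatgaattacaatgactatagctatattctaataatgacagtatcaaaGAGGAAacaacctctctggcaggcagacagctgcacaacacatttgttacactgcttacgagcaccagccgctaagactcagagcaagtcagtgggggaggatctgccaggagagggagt
Counted from the annotated start as position 0, the AP-1 match of Gpnmb begins at 8, and the matches of Htr2b begin at -163 (AP-1) and -70 (PU.1 core). The Mcoln3 promoter held a PU.1 core on the minus strand at -129, and the Akr1b8 promoter held no match. The Mcoln3 promoter covers chr3:146121541-146121840 on the plus strand. It lies inside the gene's span and not at its 5' end. None of the 4 held the E-box, the M-box core or the antioxidant response core. The motifs were chosen after the promoter sequences had been seen, and a match is a description of the letters.

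Gpnmb was the most abundant of the 5 genes. In unlesioned control libraries it was counted at 148, 19.8 and 805 CPM in replicates 1, 2 and 3, and at 4dpl at 4398, 4973 and 5022 CPM. In unlesioned mutant libraries it was at 228, 18.3 and 444 CPM, and at 4dpl at 2706, 2443 and 1347 CPM. Unlesioned libraries thus spread over a range of 40.7 times in control and 24.3 times in mutant, whereas the 4dpl libraries spread over 1.14 and 2.01 times, and the 4dpl libraries were above the unlesioned ones in both genotypes. Per kilobase of exon, Gpnmb ranked between 48 and 57 of the 31109 genes in the control 4dpl libraries, between 85 and 221 in the mutant 4dpl libraries, and between 277 and 7844 in unlesioned control libraries. In control at 4dpl, 0.375 to 0.457% of all counts of a library were from this gene.

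Atp6v0d2 was lower than Gpnmb per length, at 25.7 ± 1.28 against 737 ± 53.2 CPM per kb (SD, n = 3) in control at 4dpl. Its libraries were at 6.48, 1.23 and 9.18 CPM in unlesioned control and at 69.3, 73.6 and 66.6 CPM in control at 4dpl. In the mutant they were at 4.61, 0.619 and 5.46 CPM without lesion and at 34.2, 33.7 and 15.6 CPM at 4dpl. The 4dpl and unlesioned libraries did not overlap in either genotype, and the lowest 4dpl library was mutant replicate 3.

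Mcoln3 was at 0.995, 0.425 and 7.76 CPM in unlesioned control libraries and at 31.6, 34.5 and 27.3 CPM at 4dpl. In the mutant it was at 2.16, 1.74 and 3.53 CPM without lesion and at 11.2, 10.7 and 3.88 CPM at 4dpl. The mutant groups were separated by little, since mutant 4dpl replicate 3 lay just above the highest unlesioned mutant library and below unlesioned control replicate 3.

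Htr2b was at 0.864, 0.744 and 7.72 CPM in unlesioned control libraries and at 32.6, 31.6 and 35.7 CPM at 4dpl. In the mutant it was at 3.34, 0.300 and 2.88 CPM without lesion and at 24.8, 15.6 and 7.87 CPM at 4dpl. The mutant 4dpl libraries were above the unlesioned mutant ones and spread over 3.14 times, against 1.13 times in control. Psmd1, the proteasome subunit gene on the other strand, was at 64.5 to 141 CPM in unlesioned control, 177 to 225 in control at 4dpl, 78.7 to 113 in unlesioned mutant and 168 to 174 in mutant at 4dpl. Its log2 fold change after lesion was 1.01 (SE 0.27) in control and 0.90 (SE 0.27) in mutant, against 3.42 (SE 0.88) and 2.89 (SE 0.87) for Htr2b. The part of reads over the shared windows in the Htr2b count was not tested.

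Akr1b8 had the lowest counts, 14 to 75 reads per unlesioned library. It was at 1.41, 0.297 and 0.645 CPM in unlesioned control and at 8.46, 17.0 and 4.65 CPM in control at 4dpl. In the mutant it was at 0.405, 0.375 and 1.52 CPM without lesion and at 3.73, 3.49 and 1.08 CPM at 4dpl, so that the mutant groups overlapped. It was also the gene with the widest spread in control at 4dpl, 3.66 times, where replicate 2 was highest.

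**Figure D1:**
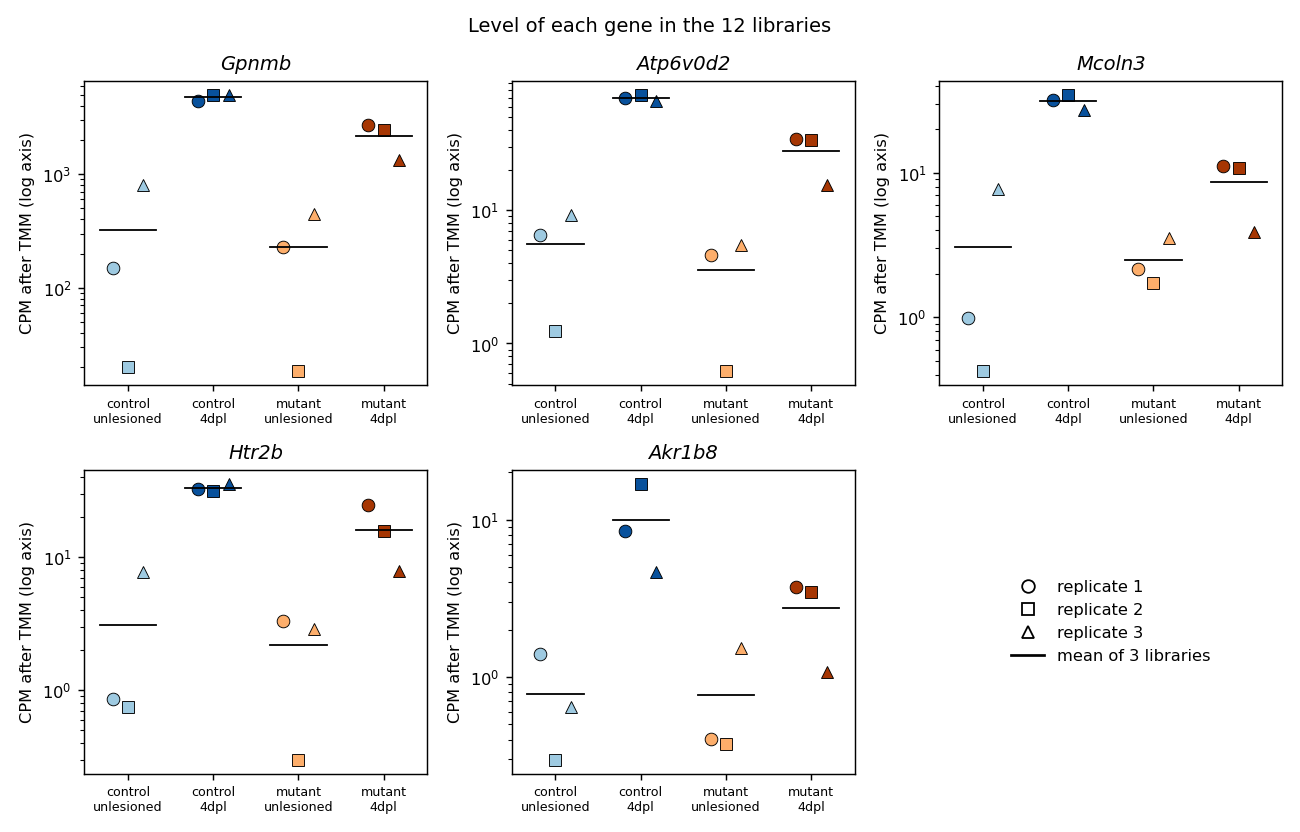
CPM of each gene (log axis) in the 3 libraries of each group, with the replicate by marker shape and the mean as a bar. Control 4dpl libraries were above all other libraries for every gene, while unlesioned libraries ranged widely, from 19.8 to 805 CPM for Gpnmb in control.

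In every gene the mean level fell in the order control 4dpl, mutant 4dpl, control unlesioned, mutant unlesioned. The last 2 groups overlapped for all 5 genes. Mutant 4dpl libraries overlapped the unlesioned control libraries for Mcoln3 and Akr1b8. The libraries of a group tended to be ordered alike: replicate 2 was the lowest unlesioned library for all 5 genes in both genotypes, and replicate 3 was the highest for 4 of them in each genotype (all but Akr1b8 in control and all but Htr2b in the mutant). These 2 lowest libraries also had the lowest summed myeloid markers of their groups, 4476 and 5008 CPM, and the highest summed neutrophil markers, 92100 and 106335 CPM. In mutant 4dpl libraries, replicate 1 was the highest and replicate 3 the lowest for all 5 genes, and replicate 3 had the lowest myeloid sum of its group, 8737 CPM, and the highest sum of oligodendrocyte markers of the 12 libraries, 70370 CPM. The part of cell composition in these orders was not tested.

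In control, where the genes were chosen, the log2 fold change after lesion was 3.89 (SE 1.11) for Gpnmb, 3.67 (SE 0.74) for Akr1b8, 3.63 (SE 0.72) for Atp6v0d2, 3.42 (SE 0.88) for Htr2b and 3.34 (SE 0.79) for Mcoln3. As ratios of mean CPM these were 14.8, 12.8, 12.4, 10.7 and 10.2. Of all genes tested, 5.12% were called higher and 5.01% lower in this comparison, and 16.5% had all 4dpl libraries above all unlesioned ones. Without control unlesioned replicate 3 the log2 fold change was 5.84 for Gpnmb, 5.45 for Mcoln3 and 5.38 for Htr2b, without control unlesioned replicate 1 it was 4.43 for Akr1b8, and without control 4dpl replicate 2 it was 3.07 for Akr1b8.

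The comparison in the mutant asks whether the 5 genes were also higher after lesion in libraries that entered their choice only through the average level. All 5 were higher on average, and none passed the test for a call, which required a p-value below 0.01 and an adjusted p below 0.05. Gpnmb had a log2 fold change of 3.23 (SE 1.08, edgeR's quasi-likelihood test, Benjamini-Hochberg adjusted p = 0.0766) and mean CPM 9.41 times higher at 4dpl. Atp6v0d2 had 2.97 (SE 0.70, edgeR's quasi-likelihood test, adjusted p = 0.0538), the smallest adjusted p of the 5, with mean CPM 7.81 times higher. The other endolysosomal gene, Mcoln3, had 1.79 (SE 0.75, edgeR's quasi-likelihood test, adjusted p = 0.119) and mean CPM 3.46 times higher. Htr2b had 2.89 (SE 0.87, edgeR's quasi-likelihood test, adjusted p = 0.0654) and mean CPM 7.41 times higher. Akr1b8 had 1.86 (SE 0.70, edgeR's quasi-likelihood test, adjusted p = 0.0977) and mean CPM 3.61 times higher. Few genes were called in this comparison at all, 7 higher (0.0225%) and 35 lower (0.113%) of 31109. At an unadjusted p below 0.05 all 5 genes were higher, as were 15.9% of all genes (17.9% were lower). The 4dpl libraries were all above the unlesioned ones for 4 of the 5 genes, as for 18.8% of all genes.

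The absence of a call depended on the tool and on single libraries. DESeq2 called Atp6v0d2 and Htr2b when fitted to all libraries, with no adjusted p for Gpnmb, and called 4 of the 5, all but Akr1b8, when fitted to the mutant groups alone. voom with sample weights called Gpnmb, Atp6v0d2 and Htr2b. Without control unlesioned replicate 1, Atp6v0d2 (edgeR's quasi-likelihood test, adjusted p = 0.0324) and Htr2b (adjusted p = 0.0386) were called, and 2615 genes in all were called higher in the mutant. Without mutant unlesioned replicate 1, Atp6v0d2 was called (edgeR's quasi-likelihood test, adjusted p = 0.0389), and 2135 genes in all. The number of all genes called higher was 23 without control unlesioned replicate 2, 4 without control 4dpl replicate 1, 11 without control 4dpl replicate 3, and 0 without control 4dpl replicate 2, mutant unlesioned replicate 2 or 3, or any of the 3 mutant 4dpl replicates. Akr1b8 was not called under any of the alternatives.

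**Figure D2:**
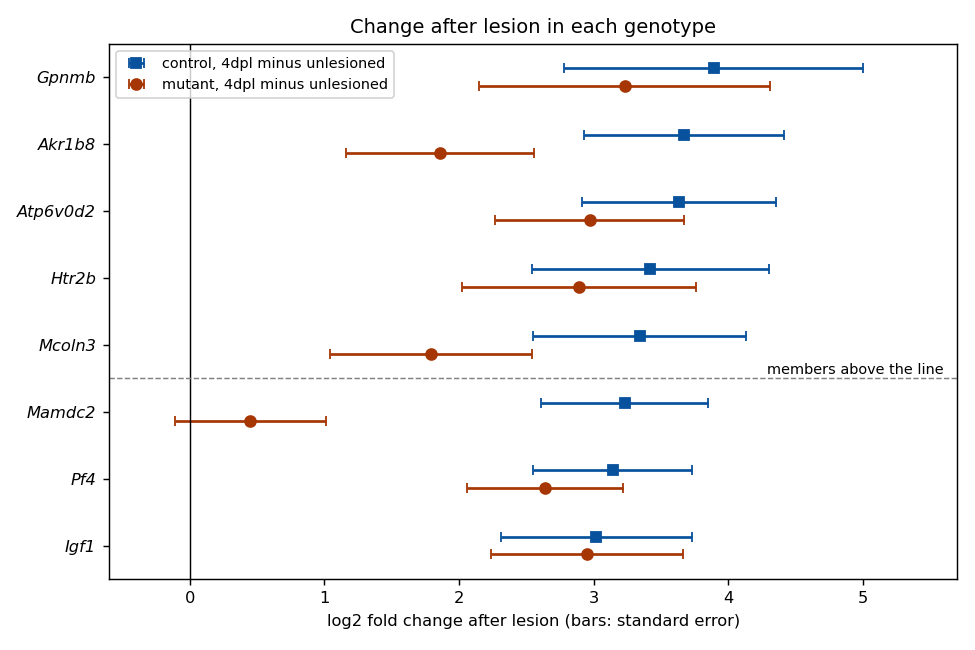
Log2 fold change from unlesioned to 4dpl (x axis) with standard errors, in control and mutant, for the 5 genes and the next 3 in the order of control rises. The values of Gpnmb, Atp6v0d2 and Htr2b in the mutant lie between 2.89 and 3.23, those of Mcoln3 and Akr1b8 at 1.79 and 1.86, and that of Mamdc2 at 0.45.

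At 4dpl the mutant libraries were below the control libraries for all 5 genes, with no overlap, which 5.44% of all genes showed. The genes had been chosen for high values in these control libraries, so nothing is read from this count. Mean CPM in the mutant was 0.451 of that in control for Gpnmb, 0.398 for Atp6v0d2, 0.483 for Htr2b, 0.276 for Mcoln3 and 0.275 for Akr1b8. The log2 difference, mutant minus control, was -1.15 (SE 1.0) for Gpnmb, -1.33 (SE 0.65) for Atp6v0d2 and -1.05 (SE 0.81) for Htr2b. It was -1.86 (SE 0.74) for Mcoln3 and -1.87 (SE 0.69) for Akr1b8, and -1.25 for Akr1b8 without control 4dpl replicate 2. No gene of the 31109 was called between genotypes at 4dpl by edgeR, where 6.92% had an unadjusted p below 0.05, and DESeq2 on the 4dpl groups alone called 510 higher and 101 lower in the mutant. Without control unlesioned replicate 1, edgeR called 46 higher and 2 lower.

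Without lesion the log2 difference between genotypes lay between -0.67 (SE 0.66, Atp6v0d2) and -0.05 (SE 0.70, Akr1b8), within its error for 4 of the 5 genes. For Atp6v0d2 it was just beyond 1 standard error. The sign rested on single libraries: without control unlesioned replicate 3 it became 1.45 for Gpnmb, 1.79 for Mcoln3 and 1.43 for Htr2b, and without control unlesioned replicate 1 it became 0.68 for Akr1b8. The log2 change after lesion, mutant minus control, was -0.65 (SE 1.40) for Gpnmb, -0.66 (SE 0.92) for Atp6v0d2 and -0.53 (SE 1.15) for Htr2b. The same difference was -1.55 (SE 1.03) for Mcoln3 and -1.82 (SE 0.97) for Akr1b8. These differences moved widely with single unlesioned libraries. Without control unlesioned replicate 3 the difference was -2.60 for Gpnmb, -3.65 for Mcoln3, -2.48 for Htr2b and -1.20 for Atp6v0d2, and without mutant unlesioned replicate 3 it was 0.24 for Gpnmb and -0.86 for Akr1b8. With each of the 12 libraries left out it ranged from -2.60 to 0.24 for Gpnmb, -1.20 to -0.19 for Atp6v0d2, -2.48 to -0.06 for Htr2b, -3.65 to -1.04 for Mcoln3 and -2.55 to -0.86 for Akr1b8. No gene was called for this difference in any of the fits, and 3.81% of all genes had an unadjusted p below 0.05 in the fit with edgeR.

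Myeloid markers were themselves higher at 4dpl, with summed levels of 4476 to 7273 CPM in unlesioned control and 10594 to 13147 CPM in control at 4dpl, and 5008 to 7620 and 8737 to 11950 CPM in the mutant. The list held 8 markers, among them Csf1r, Itgam and Ptprc, and none was at 0 in any library. Divided by this sum, Gpnmb was at 38.2 to 41.5% of the myeloid marker level in control at 4dpl and 15.4 to 24.0% in mutant at 4dpl, against 0.442 to 14.4% and 0.365 to 7.65% without lesion. The ratio of 4dpl to unlesioned means on this scale was 7.05 in control and 5.63 in mutant for Gpnmb, 6.19 and 4.76 for Atp6v0d2, and 4.97 and 4.54 for Htr2b. It was 4.80 and 1.96 for Mcoln3 and 6.63 and 2.0 for Akr1b8. In the mutant, the libraries on this scale overlapped between unlesioned and 4dpl for Mcoln3, at 0.0283 to 0.0609% and 0.0444 to 0.105% of the myeloid marker level, and for Akr1b8, at 0.00532 to 0.0261% and 0.0123 to 0.0342%. The control ratios are those of genes chosen in control, and the part of cell number in these changes was not tested.

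**Figure D3:**
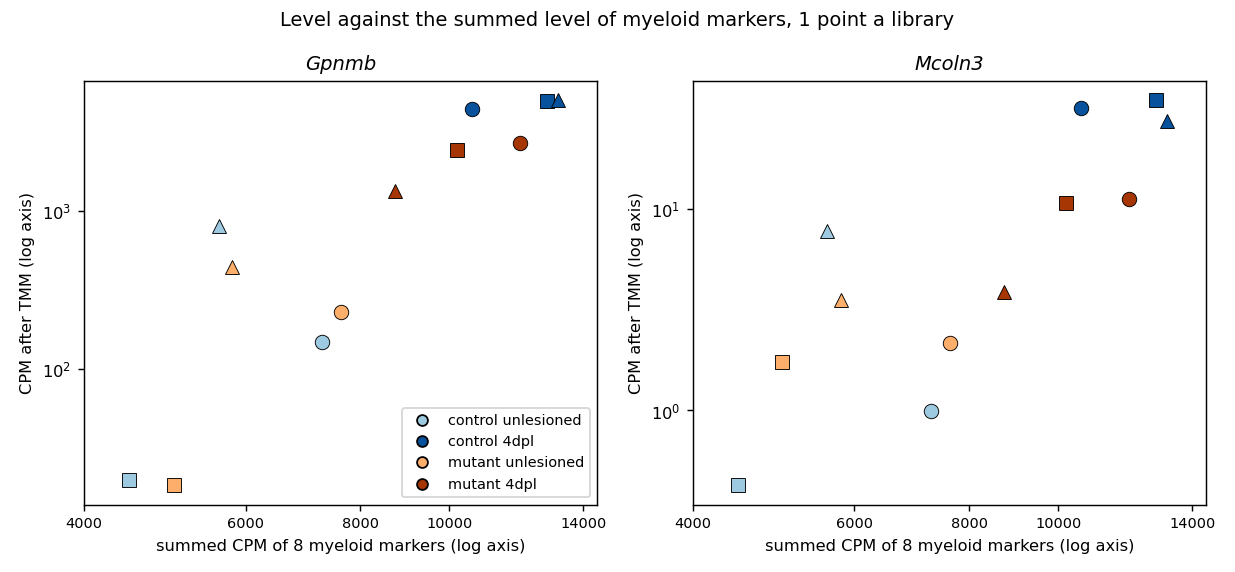
CPM of Gpnmb and Mcoln3 (y axis, log) against the summed CPM of 8 myeloid markers (x axis, log), with 1 point for each of the 12 libraries, colour for group and the same marker shapes for replicates 1 to 3. The 4dpl libraries had marker sums of 8737 CPM or more and the unlesioned libraries of 7620 CPM or less, so that the marker sum and the lesion moved together.

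Gpnmb is also a gene of pigment cells. The melanocyte markers Tyr, Tyrp1, Dct and Mlana were each at group means of 2.11 CPM or below in all groups, and Sox10, which oligodendrocytes also express, took most of that list's sum, with group means of 122 to 235 CPM. These genes were named after their values were seen. Pmel, the melanosome gene closest to Gpnmb, was at 1.46, 1.42, 1.75 and 1.30 CPM in control unlesioned, control 4dpl, mutant unlesioned and mutant 4dpl, with a log2 fold change after lesion of -0.04 (SE 0.42) in control and -0.42 (SE 0.42) in mutant.

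Partners of GPNMB were compared next. ADAM10, which sheds its ectodomain, and the binding partners integrin alpha 5, integrin beta 1 and syndecan 4 were all encoded by genes that rose in control: Itgb1 by a log2 fold change of 1.56 (SE 0.39), Itga5 by 1.53 (SE 0.45), Adam10 by 1.44 (SE 0.37) and Sdc4 by 1.02 (SE 0.28). In the mutant the same 4 genes had 1.11 (SE 0.39), 1.42 (SE 0.45), 0.99 (SE 0.37) and 0.83 (SE 0.28), and none was called. Cd44, a receptor for GPNMB, was at -0.07 (SE 0.45) and -0.06 (SE 0.45). Of the 6 genes of this list, 4 were called higher in control and 0 in the mutant, where 4 were higher at an unadjusted p below 0.05 and DESeq2 on all libraries called 1. The medians were 1.23 in control and 0.91 in the mutant, against -0.36 and -0.18 over all genes tested. For this list and those that follow, edgeR called 5.12% of all genes higher in control. In the mutant, 15.9% were higher at an unadjusted p below 0.05. DESeq2 on all libraries called 1333 of all genes higher and 3962 lower in the mutant, and 2620 higher and 4376 lower in control.

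The MiT/TFE transcription factors, which drive lysosomal genes and are known to act on Gpnmb, were not called in either genotype. Mitf was at 18.1 ± 4.02 and 28.7 ± 1.2 CPM (SD, n = 3) in control before and after lesion and at 13.7 ± 5.15 and 25.9 ± 8.63 CPM in the mutant, with log2 fold changes of 0.66 (SE 0.30) and 0.92 (SE 0.30). Tfe3 had 0.75 (SE 0.26) and 0.62 (SE 0.26), Tfeb 0.11 (SE 0.25) and 0.56 (SE 0.25), and Tfec -0.16 (SE 0.48) and -0.12 (SE 0.49). At an unadjusted p below 0.05, 2 of the 4 were higher in control, as were 13.9% of all genes, and 3 in the mutant, and DESeq2 on all libraries called 1 and 0.

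The other subunits of the V-ATPase were listed beside Atp6v0d2. Of 24 subunit genes other than Atp6v0d2, 23 were tested, and 8 rose and 2 fell in control while 0 passed in the mutant, where 15 were higher at an unadjusted p below 0.05 and DESeq2 on all libraries called 8. The median log2 fold change was 0.72 in control and 0.64 in mutant. Atp6v1a, the catalytic subunit, had 1.33 (SE 0.25) in control and 1.2 (SE 0.25) in mutant, and Atp6v1c1, a subunit of the cytosolic sector, 1.38 (SE 0.28) and 1.09 (SE 0.28). Atp6v1e2, an isoform known from testis, was called lower in control at levels near the limit of detection, 0.455 and 0.0154 CPM before and after lesion. Atp6v0d1, the widely expressed paralog of Atp6v0d2, was at 121 ± 22.2 and 178 ± 24.6 CPM (SD, n = 3) in control and 94.1 ± 13.2 and 146 ± 3.78 CPM in the mutant, with log2 fold changes of 0.56 (SE 0.22) and 0.63 (SE 0.22). Per length, Atp6v0d2 accordingly made up 0.709 to 5.55% of the 2 paralogs in unlesioned control and 19.4 to 22.7% at 4dpl, and 0.383 to 3.65% and 6.76 to 13.3% in the mutant. The d1 isoform thus remained the more abundant in all 12 libraries.

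Osteoclast and giant cell genes were listed because Atp6v0d2 is known from cell fusion. Of 16, 7 rose in control and 0 passed in the mutant, where 8 were higher at an unadjusted p below 0.05 and DESeq2 on all libraries called 4. The medians were 0.95 and 0.86. Acp5, the tartrate-resistant acid phosphatase of osteoclasts, was at 47.1, 14.6 and 16.7 CPM in unlesioned control and 121, 177 and 81.7 CPM at 4dpl, and at 10.6, 6.39 and 7.90 CPM and 41.0, 55.6 and 27.0 CPM in the mutant. Its log2 fold change was 2.28 (SE 0.45) in control and 2.31 (SE 0.45, edgeR's quasi-likelihood test, adjusted p = 0.0522) in mutant, and the groups did not overlap in either genotype. Tcirg1, the a3 subunit of the same pump, had 1.08 (SE 0.25) and 0.86 (SE 0.25), and Clcn7, a lysosomal chloride-proton exchanger, 1.43 (SE 0.31) and 0.98 (SE 0.31). The fusion genes themselves were low. Dcstamp was at 0.595 to 3.63 CPM in unlesioned control and 0.979 to 6.28 CPM at 4dpl, with overlap. Ocstamp was at 0.545 to 1.06 CPM and 2.30 to 10.4 CPM, without overlap, and was called higher in control. Its log2 fold change was 2.73 (SE 0.59) in control and 1.31 (SE 0.58) in mutant, where it was not called. In the mutant, Dcstamp was at 1.03 to 1.61 CPM without lesion and 0.539 to 1.42 CPM at 4dpl. Ocstamp was at 0.430 to 0.479 CPM and 0.455 to 1.56 CPM there. Both were named after their values were seen.

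Mcoln3 shares its family with Mcoln1, the widely expressed lysosomal channel TRPML1, and Mcoln2. Mcoln2 was at 3.21, 0.850 and 2.19 CPM in unlesioned control and 7.92, 9.0 and 7.83 CPM at 4dpl, and at 1.95, 1.73 and 1.18 CPM and 8.34, 6.25 and 2.64 CPM in the mutant. Its log2 fold change was 1.98 (SE 0.48) in control, where it was called, and 1.82 (SE 0.48) in mutant, where it was not (edgeR's quasi-likelihood test, adjusted p = 0.0557). Mcoln1 had 0.83 (SE 0.29) and 0.89 (SE 0.29) and was called in neither. Per length, Mcoln3 made up 1.91 to 20.4% of the 3 family members in unlesioned control and 33.2 to 36.0% at 4dpl, with no overlap. In the mutant it made up 5.54 to 10.9% and 6.64 to 17.7%, with overlap. Of 13 genes of endolysosomal channels and the PIKfyve complex, which makes the lipid that opens the TRPML channels, 6 rose in control and 0 passed in the mutant, where 10 were higher at an unadjusted p below 0.05 and DESeq2 on all libraries called 4. P2rx4, an ATP-gated channel of lysosomes, had 1.46 (SE 0.30) and 1.23 (SE 0.30), and Vac14, the scaffold of the PIKfyve complex, 1.09 (SE 0.27) and 0.95 (SE 0.27).

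None of the other serotonin genes was called. Of 20 genes for the other receptors and for serotonin synthesis, uptake and breakdown, 19 were tested and 0 were called in either direction in either genotype. At an unadjusted p below 0.05, 2 were higher and 3 lower in control, where 20.1% of all genes were lower, and 2 were higher and 5 lower in the mutant, and DESeq2 on all libraries called 2 and 3 lower. The median log2 fold change was -1.26 in control and -1.02 in mutant. Most were barely counted: the whole list summed to 42.9 to 56.8 CPM in control libraries and 61.6 to 128 CPM in mutant libraries. Tph1, which makes serotonin outside the brain, was at 0.478 and 0.116 CPM before and after lesion in control and 0.935 and 0.132 CPM in the mutant. Maoa, which breaks serotonin down, was at 11.6 and 18.1 CPM and 13.6 and 24.2 CPM. The paralogs Htr2a and Htr2c were at 0.866 and 1.95 CPM at most in any library. Per length, Htr2b made up 65.2 to 92.8% of the 3 receptors in unlesioned control and 98.9 to 99.7% at 4dpl, and 45.0 to 87.1% and 97.7 to 99.6% in the mutant.

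Akr1b8 has the paralogs Akr1b3, the aldose reductase of glucose metabolism, Akr1b7 and Akr1b10. Akr1b3 was at 72.6, 46.1 and 68.6 CPM in unlesioned control and 117, 130 and 124 CPM at 4dpl, and at 57.6, 44.2 and 48.2 CPM and 120, 90.6 and 90.6 CPM in the mutant. It rose by a log2 fold change of 0.98 (SE 0.23) in control and had 1.0 (SE 0.23, edgeR's quasi-likelihood test, adjusted p = 0.0532) in mutant. Akr1b10 had 0.92 (SE 0.31) and 0.65 (SE 0.31), called in neither, and Akr1b7 was at 0.453 CPM at most in any library. Per length, Akr1b8 made up 1.93 to 5.19% of the 4 genes in unlesioned control and 9.09 to 26.7% at 4dpl, and 1.56 to 6.21% and 3.01 to 9.60% in the mutant, so that Akr1b3 and Akr1b10 remained more abundant in every library. Of 15 other aldo-keto reductases, 2 rose and 1 fell in control and 0 passed in the mutant, where 4 were higher and 6 lower at an unadjusted p below 0.05 and DESeq2 on all libraries called 3 higher and 6 lower. Over all genes, 5.12% were called higher and 5.01% lower in control, and 15.9% were higher and 17.9% lower at that p in the mutant. The medians were -0.26 and -1.61, both the values of Akr1c18, which had group means of 0.183 to 0.554 CPM. The 6 genes lower at that p in the mutant had group means of 0.916 CPM or below there, near the limit of detection. The 4 higher genes had group means of 12.2 CPM or above in the mutant. Akr1a1, a broad aldehyde reductase, had 1.25 (SE 0.26) and 1.15 (SE 0.26). Akr1d1, a steroid reductase of liver, was at 0.511 and 0.164 CPM before and after lesion in control and 0.568 and 0.0435 CPM in the mutant.

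**Figure D4:**
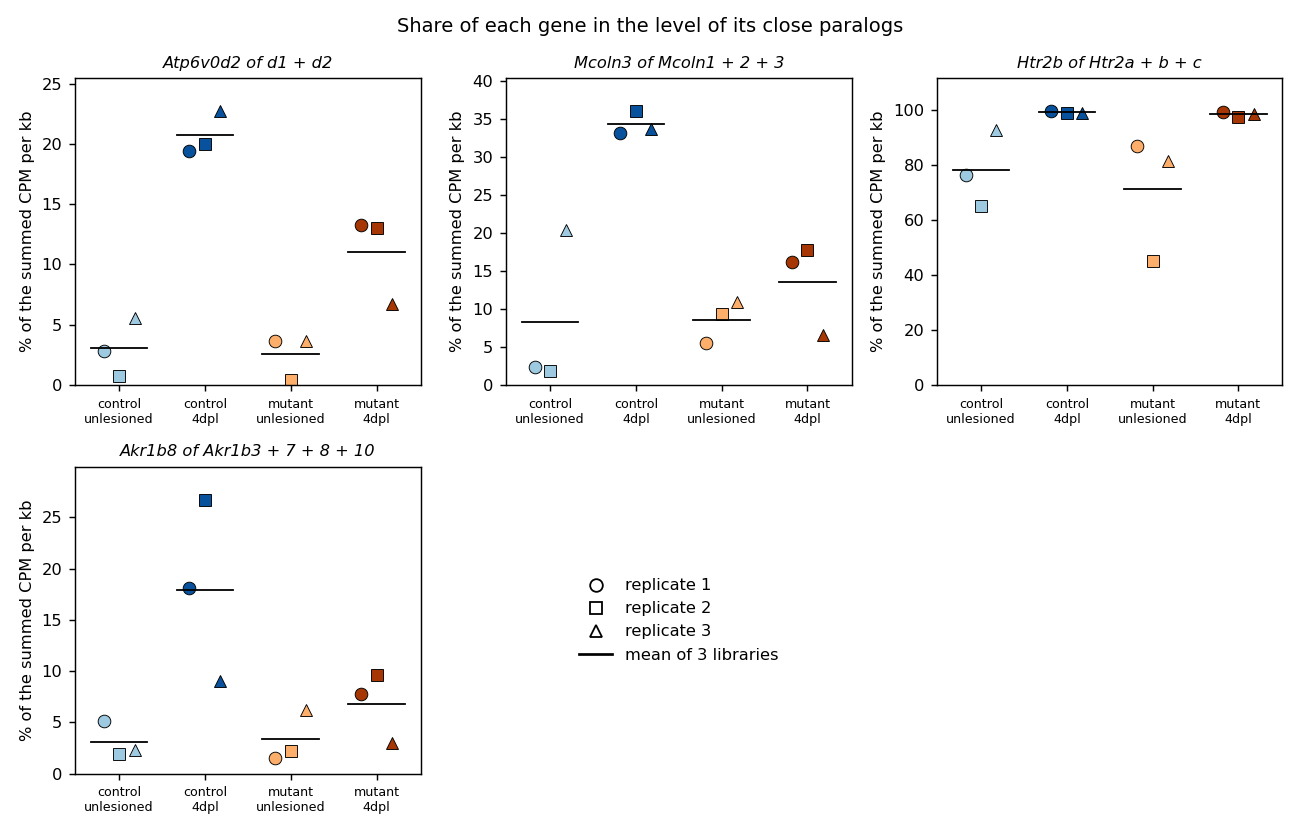
Share of each gene in the summed CPM per kilobase of its close paralogs (y axis, %), with 3 libraries and their mean in each group. The share of Mcoln3 was 33.2 to 36.0% in control at 4dpl and lay at 6.64 to 17.7% in mutant at 4dpl, and that of Htr2b was 97.7% or more in all 4dpl libraries.

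Targets of NRF2, the factor of the oxidative stress response, were listed because aldo-keto reductases are among them. Of 14, 2 rose in control and 0 passed in the mutant, where 9 were higher at an unadjusted p below 0.05 and DESeq2 on all libraries called 5, against 5.12% of all genes called higher in control and 15.9% higher at that p in the mutant. The medians were 0.10 and 0.82. The 2 that rose were Cbr3, a carbonyl reductase, with 1.40 (SE 0.28) in control and 1.22 (SE 0.28) in mutant, and Prdx1, a peroxiredoxin, with 1.29 (SE 0.33) and 1.5 (SE 0.33). Hmox1, the heme oxygenase, was at 666, 74.6 and 295 CPM in unlesioned control and 3103, 1870 and 545 CPM at 4dpl, with overlap. In the mutant it was at 56.8, 96.0 and 68.7 CPM and 2107, 1451 and 268 CPM, without overlap, and its log2 fold change was 2.41 (SE 0.80) in control and 4.11 (SE 0.87, edgeR's quasi-likelihood test, adjusted p = 0.0522) in mutant.

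Lipid-laden phagocyte genes, which are known to be expressed with Gpnmb in macrophages and microglia that have taken up myelin, were the list with the highest medians. Of 20, 16 rose in control and 1, Fabp5, passed in the mutant, where 18 were higher at an unadjusted p below 0.05 and DESeq2 on all libraries called 16. The median log2 fold change was 1.90 in control and 1.53 in mutant, and all 20 were above 0 in both. Fabp5, a fatty acid binding protein, was at 244, 156 and 316 CPM in unlesioned control and 1120, 974 and 650 CPM at 4dpl, and at 215, 101 and 166 CPM and 634, 598 and 601 CPM in the mutant. Its log2 fold change was 1.94 (SE 0.34) in control and 1.93 (SE 0.34, edgeR's quasi-likelihood test, adjusted p = 0.0456) in mutant. Cd63, a tetraspanin of late endosomes, had 1.37 (SE 0.26) and 1.31 (SE 0.26). The summed level of the list was 73142 to 73860 CPM in control at 4dpl and 34256 to 56176 CPM in mutant at 4dpl, against 9352 to 22143 and 5896 to 16879 CPM without lesion.

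Counts called in control for these lists rested on single libraries. Without control unlesioned replicate 2, control 4dpl replicate 1 or control 4dpl replicate 2, the number of all genes called higher in control was 1, 3 or 2 in place of 1592, and without replicate 2 of the unlesioned control no gene of the 9 lists was called in control. It was 81 without control unlesioned replicate 3, 936 without control 4dpl replicate 3, 502 without mutant unlesioned replicate 3, 1019 without mutant 4dpl replicate 2 and 4124 without control unlesioned replicate 1. In the mutant, 16 of the 20 lipid-laden phagocyte genes were called without control unlesioned replicate 1 and 16 without mutant unlesioned replicate 1. The counts of 0 in other lists moved too. Without control unlesioned replicate 1, 13 V-ATPase subunits, 8 NRF2 targets, 7 endolysosomal genes and 6 osteoclast and giant cell genes were called higher. So were 3 Gpnmb partners, 3 aldo-keto reductases and 1 MiT/TFE factor, but no serotonin gene.

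**Figure D5:**
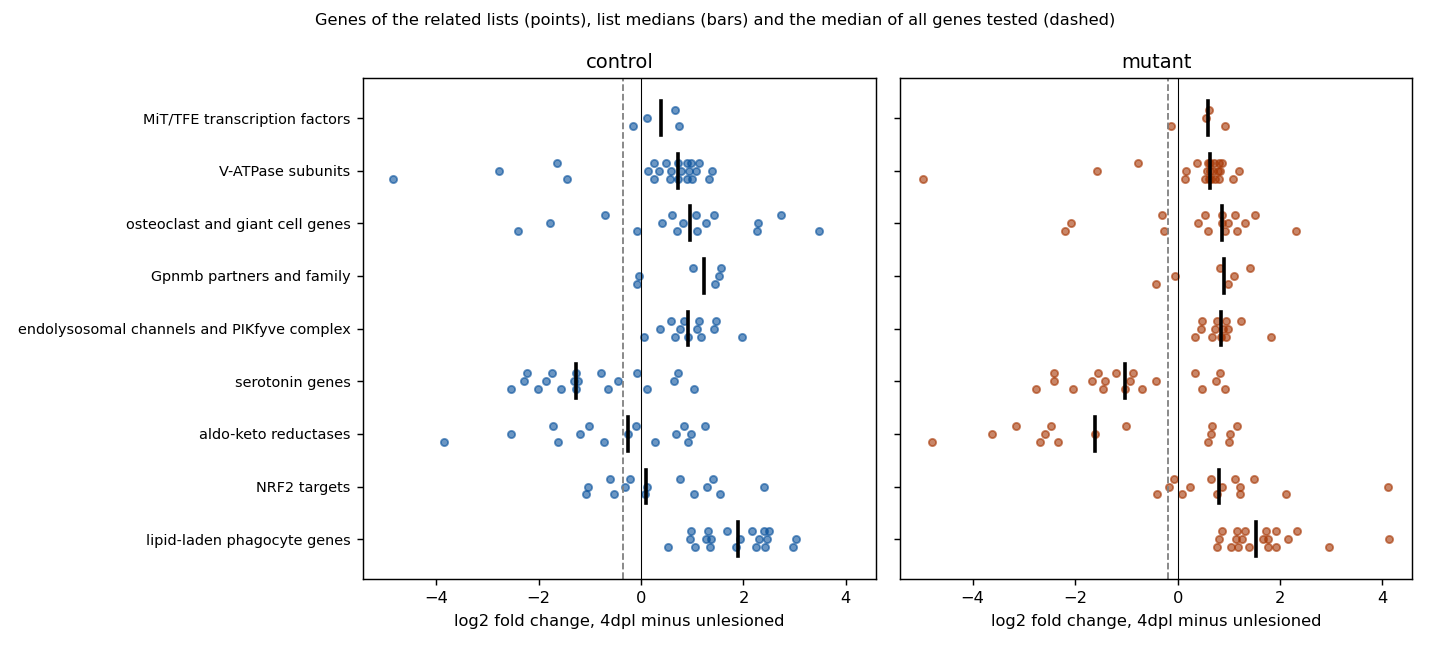
Log2 fold change from unlesioned to 4dpl (x axis) of each gene of the 9 related lists, in control and in mutant, with list medians as bars and the median of all genes tested, -0.36 in control and -0.18 in mutant, as a dashed line. All 20 lipid-laden phagocyte genes lie above 0 in both panels, and most serotonin genes lie below.

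The profiles most like those of the 5 genes were sought over the 12 libraries among 13963 genes with an average log2 CPM of at least 1, by the root mean square difference of log2 CPM after each gene was centred on its own mean. A value of 0 would be the same profile, and Gpnmb itself had a root mean square of 2.78 about its mean. The 6 nearest to Gpnmb were Htr2b (0.80), Atp6v0d2 (0.81), Ms4a7 (0.92), Spp1 (1.04), Mcoln3 (1.28) and Igf1 (1.32), and Akr1b8 held place 19 (1.59). Thus 3 of the other 4 genes were among the nearest, which their choice by the same libraries favours. Akr1b8 itself had a root mean square of 1.74 about its mean, little above its distance of 1.59 to Gpnmb. Seen from the other genes, Gpnmb held place 6 for Htr2b, 8 for Atp6v0d2, 149 for Mcoln3 and 6152 for Akr1b8. Spp1, the secreted phosphoprotein osteopontin, was at 2396, 262 and 2325 CPM in unlesioned control and 16408, 11406 and 10879 CPM at 4dpl, and at 587, 93.2 and 493 CPM and 10295, 6151 and 4080 CPM in the mutant. Its replicate 2 was the lowest unlesioned library in both genotypes, like that of Gpnmb.

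Atp6v0d2 was nearest to Ms4a7 (0.44), Spp1 (0.55) and Htr2b (0.63), and Htr2b to Atp6v0d2 (0.63), Ms4a7 (0.70) and Igf1 (0.71). Ms4a7, a membrane protein of macrophages, was at 16.0, 2.89 and 47.8 CPM in unlesioned control and 140, 190 and 120 CPM at 4dpl, and at 9.19, 2.40 and 9.15 CPM and 90.7, 103 and 36.8 CPM in the mutant. Mcoln3 was nearest to the non-coding RNA AI427809 (0.69), to Ahnak2 (0.78) and to Fabp4 (0.83), a fatty acid binding protein, and these had log2 fold changes of 2.34, 2.54 and 2.40 in control and 1.57, 2.29 and 1.39 in mutant. Akr1b8 was nearest to Ecm1 (0.57), an extracellular matrix protein, to Anpep (0.64), an aminopeptidase, and to F7 (0.70), coagulation factor VII, with 2.97, 2.45 and 2.63 in control and 2.45, 2.07 and 2.62 in mutant. Ecm1 was at 47.3, 8.33 and 28.9 CPM in unlesioned control and 183, 319 and 160 CPM at 4dpl, with replicate 2 the lowest and then the highest, as for Akr1b8.

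The 3 genes just below the limit differed among themselves in the mutant. Mamdc2 was at 0.282, 1.02 and 3.26 CPM in unlesioned control and 15.6, 10.2 and 17.2 CPM at 4dpl, but at 3.70, 5.25 and 6.77 CPM and 6.82, 8.43 and 6.22 CPM in the mutant, where the groups overlapped and the log2 fold change was 0.45 (SE 0.56). Pf4, a chemokine of platelets and border macrophages, was at 15.8, 8.16 and 28.0 CPM and 127, 257 and 75.1 CPM in control and at 11, 6.75 and 5.03 CPM and 75.7, 47.5 and 18.8 CPM in the mutant, with log2 fold changes of 3.14 (SE 0.59) and 2.64 (SE 0.58). Igf1, a growth factor for oligodendrocytes, was at 5.09, 4.82 and 23.5 CPM and 114, 65.5 and 92.2 CPM in control and at 22.1, 4.41 and 10.6 CPM and 145, 110 and 32.3 CPM in the mutant, with 3.02 (SE 0.71) and 2.95 (SE 0.71). At 4dpl the control and mutant libraries overlapped for Igf1 and for Pf4, where control replicate 3 was at 75.1 CPM and mutant replicate 1 at 75.7 CPM.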

How the data were processed

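RNA-seq counts per gene were analysed for 12 libraries, 3 in each of 4 groups. The authors, per the methods of the paper, aligned reads with BWA to mm10, counted uniquely aligned reads on Ensembl exons with featureCounts and deposited raw counts, which are not normalized. The labels' processing notes also list STAR and DESeq2 1.2.5, without a role. The deposited gene lengths were used for levels per kilobase. Of 54838 genes, 54723 received a symbol. Total counts were 34805086 to 67251544 per library.

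Counts were fitted with edgeR 4.0.16 in R 4.3.3 (filterByExpr, 31109 genes, TMM, glmQLFit and glmQLFTest, a mean for each group). A call required a p-value below 0.01 and a Benjamini-Hochberg adjusted p-value below 0.05 over all genes. For the 5 genes p-values are given in the mutant alone, since they were chosen in control. For other genes calls are given in both genotypes. Alternatives were RLE size factors, other filters, the groups compared alone, DESeq2 1.42.0, limma 3.58.1 with voom, edgeR with legacy set to false, replicate blocks and leaving out each library. Fits across genes were also run on simulated data, and no outcome of those runs is reported here.

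The 5 genes and all gene lists were chosen with earlier results of these data known. Genes named beside them were the next 3 in the order of control rises, the nearest profiles (6 for Gpnmb, 3 for each other), all MiT/TFE factors and Gpnmb partners, close paralogs, and from each other list the 3 genes with the smallest p in the mutant. Log2 CPM used a prior count of 2. Unlesioned and lesioned tissue may come from the same mice, and nothing in the labels says whether libraries came from separate animals, so p-values measure the spread between these libraries. The labels give no batch.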

Additional observations from a re-analysis of the deposited data

How the results depend on the processing

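The number of the 5 genes called higher in the mutant after lesion was 0 with edgeR as described, with RLE size factors, with a minimum of 10 counts in every library and with the mutant groups fitted alone. It was 3 without a filter on low counts (Gpnmb, Atp6v0d2 and Htr2b), 2 with DESeq2 on all libraries, 4 with DESeq2 on the groups compared, 3 with voom and 2 with legacy set to false (Atp6v0d2 and Htr2b). Over all genes, 7 were called higher and 35 lower. These counts became 317 and 630 without a filter, 4 and 29 with at least 10 counts, 40 and 732 with the groups fitted alone, 1333 and 3962 with DESeq2 on all libraries, 1252 and 3785 with DESeq2 on the groups compared, 3495 and 3305 with voom, and 1374 and 3054 with legacy set to false. Leaving out each library gave 0 to 2 of the 5 genes, 0 to 2615 genes higher and 0 to 1883 lower. In control, 1592 genes higher and 1558 lower became 613 to 4836 and 549 to 4827 under these alternatives. They became 1 to 4124 and 0 to 3277 with each library left out, and 761 and 241 with a replicate block on the study's numbers. The median log2 fold change over all genes in the mutant was -0.18, and it was -0.32 with RLE size factors, -0.62 without a filter and 0.06 with at least 10 counts in every library. In control it was -0.36, and -0.42, -0.64 and -0.05 under the same alternatives. The cause was not tested.

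Whether same-numbered libraries come from the same mouse is not known. Their deviations correlated at 0.052 to 0.189 in control and -0.07 to 0.073 in the mutant. Numbers of the study's methods gave -0.089 to -0.023 in control and -0.088 to -0.03 in the mutant. A replicate block on label numbers left 0 of the 5 genes, 4 genes higher and 0 lower called in the mutant, and a replicate block on the study's numbers left 0, 0 and 0. The log2 fold change of each of the 5 genes in the mutant kept its sign under all these alternatives and with each library left out, between 2.70 and 4.88 for Gpnmb, 2.48 and 3.71 for Atp6v0d2, 1.48 and 2.17 for Mcoln3, 2.38 and 3.69 for Htr2b, and 1.54 and 2.82 for Akr1b8. At 14 to 75 reads in unlesioned libraries, Akr1b8 was the gene whose values depth limited most.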
